A study of Homo sapiens with 12 samples.

Results

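The SLAM family and its adaptors were followed through 8 genes, taken by symbol from a table of 17589 genes: CD48, SLAMF1, SLAMF6, SLAMF7, CD84 and LY9, which encode cell surface proteins, and SH2D1A and SH2D1B, which encode the adaptors SAP and EAT-2. RNA was sequenced from unstimulated cells of YT, a human line labelled NK that lacks CD16a. The cells had been transduced with lentivirus carrying eGFP (CTRL), a high-affinity, non-cleavable CD16a (hnCD16), hnCD16-2B4-DAP10-CD3ζ (FR1) or hnCD16-DAP10-CD3ζ (FR2), the receptors under the constitutive hEF1A promoter, and eGFP-positive cells were sorted and expanded. Each of the 4 groups had 3 libraries, 12 in all, so all groups share the lentiviral transduction and the sort. The labels do not say whether the 3 libraries of a group came from separate cultures, and the methods speak of independent experiments for in vitro data in general without naming the RNA libraries. If they did not, p-values measure only the spread between these libraries, which may be technical. FCGR3A, the gene of CD16a, had no count in any CTRL library, 453 to 480 counts in those of hnCD16, 559 to 567 in those of FR1 and 1012 to 1132 in those of FR2.

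SLAM receptors sit on the surface of blood cells and most of them bind their own kind on a neighbouring cell. CD48 is the exception among the genes followed here, since it is anchored in the membrane by lipid and serves as the ligand of 2B4 (CD244), the NK cell receptor whose cytoplasmic domain was built into FR1. The cytoplasmic tails of most SLAM receptors carry tyrosine motifs that bind the small adaptors SAP and EAT-2. SAP brings the kinase FYN to the receptor and keeps inhibitory phosphatases such as SHP-1 (PTPN6) away, while EAT-2 couples the receptors to phospholipase C gamma. Loss of SAP causes X-linked lymphoproliferative disease, in which NK and T cells fail to control B cells infected with Epstein-Barr virus.

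On GRCh38 with GENCODE v44, SLAMF6, CD84, SLAMF1, CD48, SLAMF7, LY9 and CD244 lie side by side on chromosome 1, within 378 kb and in this order. SLAMF6 spans chr1:160485030-160523262 and CD48 spans chr1:160678746-160711831, both on the minus strand. SH2D1B (chr1:162395268-162412138) starts 1532 kb beyond CD244, and SH2D1A lies on the X chromosome (chrX:124227868-124373197), with its RefSeq start inside the GENCODE span. RefSeq sequence (GRCh38.p14) before the transcription start was at hand for 5 of the 8 genes. The 250 bases upstream of the start are shown for the gene with the largest fold changes in each direction, CD48 and SLAMF6, and for the most abundant adaptor, SH2D1A. Capitals mark motif letters, which were searched on both strands. The letters searched were GGAAG for the ETS factors and AGATAA for the GATA factors. For T-box factors they were TCACAC, and for E-box binding factors CANNTG. For RUNX factors TGTGGT was searched, and for TCF/LEF factors the letters CTTTGA.
CD48 (chr1:160711823-160712072, minus strand): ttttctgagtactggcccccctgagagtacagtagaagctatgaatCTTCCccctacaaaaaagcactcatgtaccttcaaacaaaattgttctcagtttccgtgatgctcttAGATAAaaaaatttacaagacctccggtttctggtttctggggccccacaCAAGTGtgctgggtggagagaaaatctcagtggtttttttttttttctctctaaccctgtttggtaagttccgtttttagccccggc
SLAMF6 (chr1:160523256-160523505, minus strand): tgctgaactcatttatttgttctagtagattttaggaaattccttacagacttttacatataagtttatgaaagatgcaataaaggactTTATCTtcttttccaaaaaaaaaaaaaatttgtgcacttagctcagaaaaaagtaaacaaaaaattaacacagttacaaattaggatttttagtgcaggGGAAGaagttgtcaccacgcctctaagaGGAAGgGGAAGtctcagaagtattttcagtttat
SH2D1A (chrX:124346313-124346562, plus strand): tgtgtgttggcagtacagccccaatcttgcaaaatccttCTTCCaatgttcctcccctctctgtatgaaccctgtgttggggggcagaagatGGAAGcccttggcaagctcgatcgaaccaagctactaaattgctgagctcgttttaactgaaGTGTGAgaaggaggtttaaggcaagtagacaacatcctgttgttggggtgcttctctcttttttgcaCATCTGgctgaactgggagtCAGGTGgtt

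CD48, the ligand gene, held 1 ETS match, 1 GATA match and 1 E-box match, and SLAMF6 held 3 ETS matches and 1 GATA match. SH2D1A held 2 ETS matches, 1 T-box match and 2 E-box matches. SH2D1B held 1 ETS match and 2 E-box matches that overlap, and SLAMF1 held 1 ETS match only. RUNX and TCF/LEF letters were in 0 of these 5 windows. Of 35116 promoters of this length, 65.1% held the ETS letters, 61.8% the E-box, 11.2% TCF/LEF, 11.0% RUNX, 9.90% T-box and 9.17% GATA. A match says only that these letters occur, and the GATA letters occurred in CD48 and in SLAMF6, whose read counts moved in opposite directions below.

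The libraries held 17714566 to 18729019 counts, so that 3 counts, taken as the detection floor, were worth 0.151 to 0.173 CPM (counts scaled to library size after TMM normalization). This floor covers counting error only. The labelled cell type was checked with lists of marker genes before the SLAM genes were compared. Of 12 NK cell markers, a mean of at least 1 TPM was reached by 6 for CTRL, 5 for hnCD16, 9 for FR1 and 8 for FR2, and their summed level was 51.2 to 57.2 TPM for CTRL, 45.0 to 49.6 for hnCD16, 2328 to 2432 for FR1 and 2248 to 2327 for FR2. PRF1 (perforin, the pore-forming protein of cytotoxic granules) had 5 to 13 counts in CTRL and hnCD16 libraries and 6854 to 9722 in FR1 and FR2 libraries. NKG7 made up most of the NK cell sum in FR1 and FR2, at a mean of 1907 and 1776 TPM. KLRF1 was at or under 3 counts in every group and TYROBP in FR1 and FR2. TBX21, NCAM1 and NCR1 had at most 5 counts in any CTRL or hnCD16 library. In FR1 and FR2 libraries TBX21 had 1224 to 1439 counts, NCR1 436 to 535 and NCAM1 21 to 42. NCR3 (NKp30), an activating NK receptor on this list, went against the sum, at -2.70 in FR1 and -5.28 in FR2 against CTRL on the log2 scale. Of the 10 NK cell markers tested, 6 were DEGs (defined below) higher and 1 lower in FR1 than in CTRL. In FR2, 7 were higher and 1 lower. All 8 T cell markers were tested, and 7 were DEGs lower in both FR1 and FR2 than in CTRL. Of all tested genes, 18.3% were higher and 19.8% lower in FR1 than in CTRL, and 18.7% and 19.6% in FR2. The 8 T cell markers had a summed level of 1531 to 1756 TPM for CTRL, 1691 to 1753 for hnCD16, 78.4 to 80.4 for FR1 and 92.0 to 99.9 for FR2. CD3D, a chain of the T cell receptor complex, had 7757 to 9903 counts in CTRL and hnCD16 libraries and 0 to 3 in FR1 and FR2 libraries. CD3D also made up most of the T cell sum in CTRL and hnCD16, at a mean of 1321 and 1409 TPM. CD4, CD8A and CD8B were at or under 3 counts in FR1 and FR2. In CTRL and hnCD16 libraries CD4 had 78 to 186 counts, but CD8A only 12 to 27 and CD8B 13 to 22. CD3E was lower but not lost, with 1932 to 2828 counts in CTRL and hnCD16 and 595 to 717 in FR1 and FR2. CD28, a costimulatory receptor, was the 1 T cell marker that was higher, by 4.86 in FR1 and 5.23 in FR2 on the log2 scale. B cell markers summed to at most 25.9 TPM and myeloid markers to at most 7.26 TPM in any library, but their members differed between the groups. Of the 4 B cell markers tested, 1 was a DEG higher and 3 were lower in FR1 and in FR2 than in CTRL. PAX5 had 0 to 5 counts in CTRL and hnCD16 libraries and 656 to 828 in FR1 and FR2 libraries. CD79A went the other way, from 98 to 175 counts to 2 to 7, as did CD79B and CR2. Of the 3 myeloid markers tested, 2 were DEGs higher in FR1 and in FR2 than in CTRL. With the T cell sum far above the NK cell sum, the 6 CTRL and hnCD16 libraries go against the NK label and stand apart from the 6 FR1 and FR2 libraries. Whatever separates these 2 sets of libraries and the fusion receptors cannot be told apart in any comparison across them. In such bulk RNA, fewer cells expressing a gene and less of its RNA per cell cannot be told apart either.

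Between the fusion receptor cells and the other cells, the surface genes exchanged places. CD48 and SLAMF7 were higher and SLAMF6 and CD84 lower in FR1 and FR2 than in CTRL and in hnCD16, SH2D1A was lower but stayed abundant, SLAMF1 was at or near 0 throughout, and SH2D1B was counted only in FR1 and FR2. Differential expression was tested with edgeR's quasi-likelihood test over the 13657 genes that passed a filter on low counts, and a DEG had to change by 1 or more on the log2 scale in either direction with a p of 0.05 or less after Benjamini-Hochberg adjustment. Of the 8 genes, 6 passed the filter, while SLAMF1 and SH2D1B did not. The filter asks for enough counts in only some of the libraries, so a gene can pass on the groups in which it is higher. SLAMF6 was low in FR1 and FR2 and passed on CTRL and hnCD16, while LY9 and SLAMF7 were low in CTRL and hnCD16. Such a filter can favour genes that differ, and counts and medians over the 6 genes are given as a description only.

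**Figure D1:**
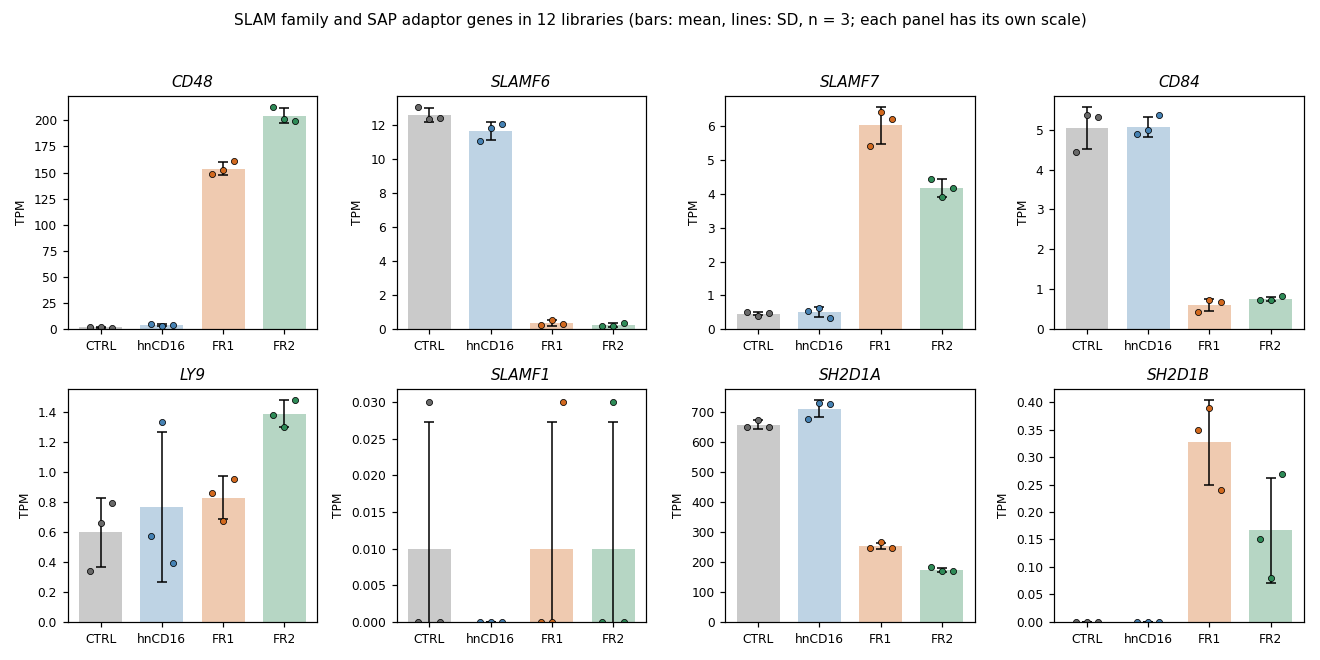
TPM of the 8 genes in each of the 12 libraries, with CTRL, hnCD16, FR1 and FR2 on the x axis and TPM on a y axis of its own in each panel. Points are libraries, bars the mean and lines the SD (n = 3). CD48 and SLAMF7 sit high and SLAMF6, CD84 and SH2D1A low in the FR1 and FR2 libraries, with no overlap with the other 6 libraries, while the LY9 points overlap.

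CD48 went from a trace to one of the more abundant transcripts. The CTRL libraries held 21, 24 and 13 counts, those of hnCD16 53, 35 and 42, those of FR1 1650, 1662 and 1750 and those of FR2 2332, 2260 and 2166. Every library of FR1 and FR2 lay far above every library of CTRL and hnCD16, and every hnCD16 library lay above every CTRL library. CTRL had a mean level of 1.86 ± 0.449 TPM, hnCD16 of 3.96 ± 0.653, FR1 of 154 ± 6.22 and FR2 of 204 ± 7.20 (SD, n = 3, here and in the levels that follow). FR1 exceeded CTRL by a log2 fold change of 6.63 ± 0.182 (SE, edgeR adjusted p = 6.57e-19) and FR2 by 7.02 ± 0.181 (edgeR adjusted p = 2.59e-19). By level, CD48 ranked between 10204 and 10959 of 17589 genes in CTRL libraries and between 662 and 691 in FR2 libraries. Most of it was 1 transcript: NM_001778 made up 91.4% ± 1.09 of the gene's TPM in FR1 and 91.4% ± 1.43 in FR2.

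CD48 was also the only one of the 6 tested genes called between hnCD16 and CTRL. Its log2 fold change there was 1.26 ± 0.214 (edgeR adjusted p = 0.000181), at no more than 53 counts in a library. With limma on log2(TPM + 1) the difference was 0.80, under the fold threshold of 1. Of all tested genes 0.527% were called in this comparison, against 1 of the 6 SLAM genes tested.

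SLAMF6 encodes a receptor of NK, T and B cells that binds itself and signals through SAP. Counts of 359, 333 and 322 in the CTRL libraries and of 317, 324 and 328 in the hnCD16 libraries stood against 6, 13 and 8 for FR1 and 5, 5 and 9 for FR2. The FR1 and FR2 libraries were close to the detection floor and none came near the CTRL or hnCD16 libraries. CTRL averaged 12.6 ± 0.396 TPM, hnCD16 11.6 ± 0.515, FR1 0.367 ± 0.153 and FR2 0.247 ± 0.0896. The log2 fold change of FR1 from CTRL was -5.02 ± 0.257 (edgeR adjusted p = 7.51e-15), and that of FR2 was -5.54 ± 0.303 (edgeR adjusted p = 4.42e-15). Between hnCD16 and CTRL it was 0.03, with a 95% interval from -0.15 to 0.22, and its sign depended on the scaling.

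The transcripts counted for SLAMF6 were unstable between libraries of 1 group. NM_001184714 took 66.0%, 50.1% and 59.3% of the gene's TPM in the CTRL libraries and 59.1%, 37.3% and 13.6% in the hnCD16 libraries. NM_052931 took 10.6%, 42.3% and 23.3% in CTRL and 31.9%, 50.9% and 69.2% in hnCD16. The shares of the groups overlap, so the leading transcript differed in name between CTRL and hnCD16 but not beyond the spread of the libraries. SLAMF7 and CD84 were likewise split. The leading SLAMF7 transcript in FR1, NM_001282592, took 58.3%, 16.9% and 19.7%, a mean of 31.6% that became 18.3% without FR1 replicate 1, and the leading share in FR2 was 26.6%. For CD84 the leading share was 23.5% in hnCD16 and 29.2% in CTRL.

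CD84, another receptor that binds itself and recruits SAP, was lower as well. It was counted 374, 439 and 423 times in the libraries of CTRL, 420, 424 and 442 times in those of hnCD16, 36, 61 and 55 times in those of FR1 and 61, 62 and 68 times in those of FR2. The FR1 and FR2 libraries all lay below those of the other groups but well above the floor. CTRL stood at 5.04 ± 0.526 TPM and hnCD16 at 5.07 ± 0.253, while FR1 stood at 0.610 ± 0.159 and FR2 at 0.760 ± 0.0520. The log2 fold change of FR1 from CTRL was -2.82 ± 0.136 (edgeR adjusted p = 3.15e-13), and FR2 differed from CTRL by -2.52 ± 0.126 (edgeR adjusted p = 8.33e-13).

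SLAMF7 (CRACC), which signals through EAT-2 and is the target of the antibody elotuzumab, moved with CD48. CTRL libraries held 12, 10 and 11 counts of it and hnCD16 libraries 13, 14 and 8, while FR1 libraries held 141, 161 and 159 and FR2 libraries 119, 105 and 110. All FR1 libraries were above all FR2 libraries, and both were above the rest. Mean levels were 0.463 ± 0.0569 TPM for CTRL and 0.497 ± 0.150 for hnCD16, against 6.03 ± 0.539 for FR1 and 4.17 ± 0.270 for FR2. FR1 exceeded CTRL by 3.98 ± 0.226 on the log2 scale (edgeR adjusted p = 4.10e-13), and FR2 exceeded it by 3.49 ± 0.228 (edgeR adjusted p = 5.65e-12).

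LY9 (SLAMF3), which lies beside SLAMF7 on the chromosome, was low in all groups. The counts of the CTRL libraries were 8, 13 and 15, of hnCD16 10, 24 and 8, of FR1 20, 14 and 21 and of FR2 32, 30 and 33. The FR2 libraries were the highest, and the FR1 libraries overlapped with both CTRL and hnCD16. The log2 fold change was 1.56 ± 0.349 for FR2 against CTRL (edgeR adjusted p = 0.000351) and 1.24 ± 0.334 for FR2 against hnCD16 (edgeR adjusted p = 0.00197). Both calls were lost with limma on log2(TPM + 1), where the values were 0.59 and 0.47. It was 0.80 ± 0.376 for FR1 against CTRL (edgeR adjusted p = 0.0557) and 0.48 ± 0.362 for FR1 against hnCD16 (edgeR adjusted p = 0.227). The hnCD16 values turned on single libraries: without hnCD16 replicate 3, FR2 against hnCD16 was 0.95, under the fold threshold, and without hnCD16 replicate 2, FR1 against hnCD16 was 1.12 and was called.

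SLAMF1, the receptor that gave the family its name and that measles virus uses to enter lymphocytes, had 0 or 1 count in every library. At this depth it was not detectable in any group. Only 1 transcript of it, XM_011509905, was quantified, so reads of any other SLAMF1 transcript may be missed. It lies between CD84 and CD48 in the cluster, genes that differed between the groups in opposite directions.

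SH2D1A, the SAP gene, was the most abundant of the 8 genes in CTRL, hnCD16 and FR1 and second to CD48 in FR2. Its counts reached 14835, 14953 and 13981 in the CTRL libraries and 15958, 16750 and 16280 in those of hnCD16, and were 5597, 5968 and 5545 in those of FR1 and 4124, 3918 and 3839 in those of FR2. The 4 groups did not overlap, in the order hnCD16, CTRL, FR1 and FR2. CTRL stood at 657 ± 14.5 TPM, hnCD16 at 710 ± 29.5, FR1 at 253 ± 10.3 and FR2 at 174 ± 6.47. The log2 fold change from CTRL was -1.16 ± 0.0487 for FR1 (edgeR adjusted p = 2.83e-13) and -1.71 ± 0.0491 for FR2 (edgeR adjusted p = 1.30e-15). For hnCD16 it was 0.26 ± 0.0483 (edgeR adjusted p = 0.000461), under the fold threshold. Its transcript make-up was even: NM_002351 made up 96.8% ± 1.23 of its TPM for CTRL, 97.2% ± 0.973 for hnCD16, 97.5% ± 1.99 for FR1 and 97.4% ± 2.78 for FR2. Even at its lowest, SAP RNA ranked between 781 and 829 of 17589 genes.

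SH2D1B, the EAT-2 gene, had 0 counts in all 6 CTRL and hnCD16 libraries, 9, 10 and 6 counts in FR1 and 4, 2 and 7 in FR2. It was present in every FR1 and FR2 library, in FR2 down to below the floor of 3 counts. With the floor of 3 counts per library in place of 0, FR1 was at least 3.18-fold higher than CTRL and at least 2.97-fold higher than hnCD16. FR2 was at least 1.63-fold higher than CTRL and at least 1.52-fold higher than hnCD16. Its counts were below the filter of the main fit. In a fit without the filter the edgeR adjusted p was 9.25e-05 for FR1 against CTRL, 0.00164 for FR2 against CTRL, 0.00012 for FR1 against hnCD16 and 0.00200 for FR2 against hnCD16.

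**Figure D2:**
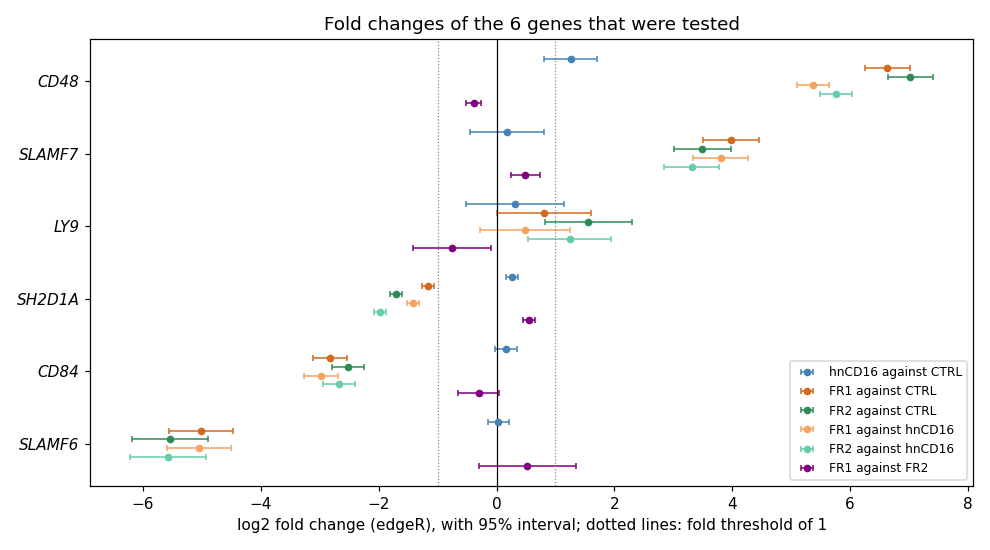
Log2 fold changes (edgeR) of the 6 tested genes on the x axis in 6 comparisons, shown by colour, with 95% intervals as horizontal lines and dotted lines at the fold threshold of 1. CD48 and SLAMF7 lie to the right and SH2D1A, CD84 and SLAMF6 to the left in the 4 comparisons that set a fusion receptor against CTRL or hnCD16, and the log2 fold change of FR1 against FR2 stays inside the dotted lines for every gene.

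Of the 6 tested genes, 5 were DEGs between FR1 and CTRL, 2 of them higher and 3 lower in FR1, where 38.0% of all tested genes were called (18.3% higher, 19.8% lower). Between FR2 and CTRL all 6 tested genes were DEGs, 3 higher and 3 lower (LY9 under the fold threshold with limma, as above), where 38.2% of all were called (18.7% higher, 19.6% lower). Against hnCD16, 5 were DEGs in FR1 (2 higher, 3 lower), beside 38.3% of all (18.7% higher, 19.6% lower). In FR2 against hnCD16 6 were DEGs (3 higher, 3 lower), beside 39.5% of all (19.6% higher, 19.8% lower). These comparisons share the CTRL or hnCD16 libraries and are not independent of each other. The median absolute log2 fold change of the 6 genes was 3.40 for FR1 against CTRL, beside 0.69 over all tested genes, and 3.01 for FR2 against CTRL, beside 0.70. Separation of the libraries was common among all genes too: 64.4% of the tested genes had no overlap in CPM between the 6 FR1 and FR2 libraries and the other 6, 31.4% higher and 33.0% lower in FR1 and FR2, and of the 6 SLAM genes tested 2 were wholly higher and 3 wholly lower.

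The make-up of the surface genes differed between the groups. The TPM of the 6 surface genes summed to 20.5 ± 0.344 for CTRL, 21.9 ± 0.273 for hnCD16, 162 ± 6.75 for FR1 and 211 ± 7.29 for FR2. SLAMF6 made up 61.3% of it in CTRL and 53.0% in hnCD16 but 0.227% in FR1 and 0.118% in FR2. CD48 made up 9.02% of it for CTRL, 18.1% for hnCD16, 95.2% for FR1 and 96.9% for FR2. SAP RNA stood at 32.0 times this sum for CTRL, 32.4 times for hnCD16, 1.56 times for FR1 and 0.823 times for FR2. As CD48 has no cytoplasmic tail for SAP to bind, this last ratio mixes a ligand with receptors and is given as a description.

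**Figure D3:**
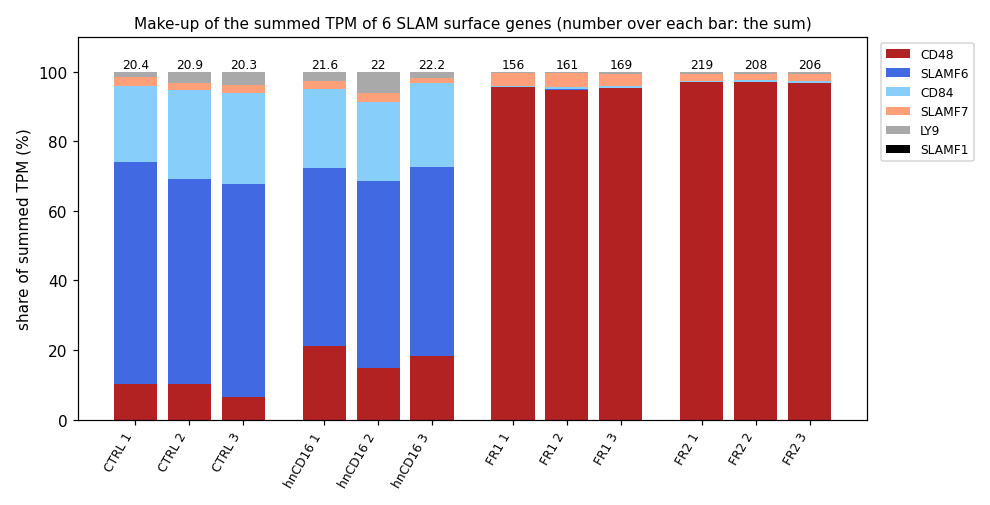
Share of the summed TPM of 6 SLAM surface genes (y axis, percent) in each of the 12 libraries (x axis), with 1 colour a gene and the sum in TPM printed over each bar. SLAMF6 and CD84 fill most of each bar in CTRL and hnCD16, and CD48 fills more than 94% of each bar in FR1 and FR2.

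The FR1 and FR2 constructs differ by the 2B4 domain, and the SLAM genes were compared between them for that reason. The groups also differed in FCGR3A counts, 559 to 567 in FR1 and 1012 to 1132 in FR2 libraries. Each was a transduced and sorted population of its own. The 2B4 domain and these other differences cannot be told apart here. None of the 6 tested genes was a DEG, where 1.93% of all tested genes were, and without the fold threshold 3 of 6 passed, beside 36.2% of all tested genes. CD48 was lower in FR1 than in FR2 by 0.39 on the log2 scale (95% interval of the log2 fold change -0.52 to -0.26, edgeR adjusted p = 0.000122). SLAMF7 was higher by 0.49 (95% interval 0.25 to 0.73, edgeR adjusted p = 0.00289) and SH2D1A by 0.55 (95% interval 0.45 to 0.66, edgeR adjusted p = 4.95e-07). For the other 3 genes the interval was wider: 0.52 (-0.29 to 1.34) for SLAMF6, -0.30 (-0.65 to 0.04) for CD84 and -0.76 (-1.42 to -0.10, edgeR adjusted p = 0.0651) for LY9. These intervals leave room for differences of more than 1 in SLAMF6 and LY9, whose counts were low.

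The partners of these genes were taken from 4 lists of 21 genes, 18 of which passed the filter. CD244 (2B4), the receptor for CD48, was counted 115 to 137 times in CTRL libraries, 178 to 185 times in hnCD16 libraries, 2199 to 2310 times in FR1 libraries and 1948 to 2133 times in FR2 libraries. Both ligand and receptor RNA were thus high in the same libraries. CD244 exceeded CTRL by 4.35 ± 0.0694 on the log2 scale in FR1 (edgeR adjusted p = 1.33e-19) and by 4.19 ± 0.0695 in FR2 (edgeR adjusted p = 1.95e-19). FR1 was above FR2 by 0.17 on the log2 scale (95% interval 0.06 to 0.27), and by up to 0.32 under the alternatives run. The FR1 construct carries 2B4 sequence and the FR2 construct does not, and the share of CD244 reads that came from the construct was not tested. SLAMF8 had 3 to 11 counts in any library and SLAMF9 at most 1, and neither was tested. CD2, whose ligand in humans is CD58, had at most 3 counts. CD58 was higher by 1.04 in FR1 and 1.16 in FR2 than in CTRL, and by 0.75 and 0.87 than in hnCD16, where it stayed under the fold threshold.

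Among 9 activating mediators, 4 were DEGs in FR1 and 4 in FR2 against CTRL (38.0% and 38.2% of all tested genes), and 5 in each against hnCD16 (38.3% and 39.5% of all). FYN, the kinase that SAP recruits, had counts of 688 to 715 for CTRL, 437 to 452 for hnCD16, 2234 to 2340 for FR1 and 2337 to 2618 for FR2. It exceeded CTRL by 1.90 ± 0.0518 on the log2 scale in FR1 (edgeR adjusted p = 5.37e-16) and by 1.99 ± 0.0517 in FR2 (edgeR adjusted p = 2.72e-16). LCK, a related kinase, went the other way. It had 1598 to 1770 counts in CTRL, 1234 to 1337 in hnCD16, 0 or 1 in FR1 and 0 to 2 in FR2. With the floor of 3 counts per library FR1 was at least 493-fold and FR2 at least 502-fold lower than CTRL. PLCG2, a phospholipase C gamma of NK and B cells, was higher by 2.71 in FR1 and 2.56 in FR2 on the log2 scale, while PLCG1 was not called in any comparison. PRKCQ, the gene of protein kinase C theta, fell by 1.96 in FR1 and by 1.78 in FR2. GRB2, a linker of receptors to RAS signalling, was called only against hnCD16, with log2 fold changes of 1.23 in FR1 and 1.29 in FR2, beside 0.79 and 0.85 against CTRL. VAV1, BCL10 and LAT were not called in any comparison.

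Among 7 inhibitory mediators, 0 were DEGs with higher counts in FR1 or FR2 than in CTRL, where 18.3% and 18.7% of all tested genes were higher, and 3 and 2 were lower, beside 19.8% and 19.6% of all. Against hnCD16, 0 were higher in FR1 or FR2, beside 18.7% and 19.6% of all. There 1 was lower in FR1 and 2 in FR2, beside 19.6% and 19.8% of all. PTPN6 (SHP-1) had counts of 447 to 513 for CTRL, 303 to 334 for hnCD16, 125 to 169 for FR1 and 131 to 149 for FR2. Its log2 fold change from CTRL was -1.48 ± 0.101 for FR1 (edgeR adjusted p = 1.79e-10) and -1.62 ± 0.103 for FR2 (edgeR adjusted p = 5.54e-11), and from hnCD16 it was -0.98 and -1.12. DOK2, an adaptor that restrains receptor signalling, had 148 to 175 counts for CTRL, 105 to 149 for hnCD16, 0 for FR1 and 0 or 1 for FR2. FR1 was at least 46.5-fold and FR2 at least 47.3-fold lower than CTRL. The related DOK1 was a DEG only in FR1 against CTRL, at -1.03. PTPN11, INPP5D, CSK and RASA1 were not called. Against hnCD16, CSK was at 0.84 in FR1 and 0.95 in FR2 and RASA1 at -0.56 and -0.58, all under the fold threshold. Over all 18 tested partners, 9 were DEGs between FR1 and CTRL and 8 for FR2 against CTRL, beside 38.0% and 38.2% of all tested genes. Their median absolute log2 fold change was 0.95 and 0.78, beside 0.69 and 0.70 over all. Of the 18, 0 were DEGs between hnCD16 and CTRL or between FR1 and FR2, although 14 and 6 passed the adjusted p alone in edgeR, beside 43.0% and 36.2% of all tested genes.

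**Figure D4:**
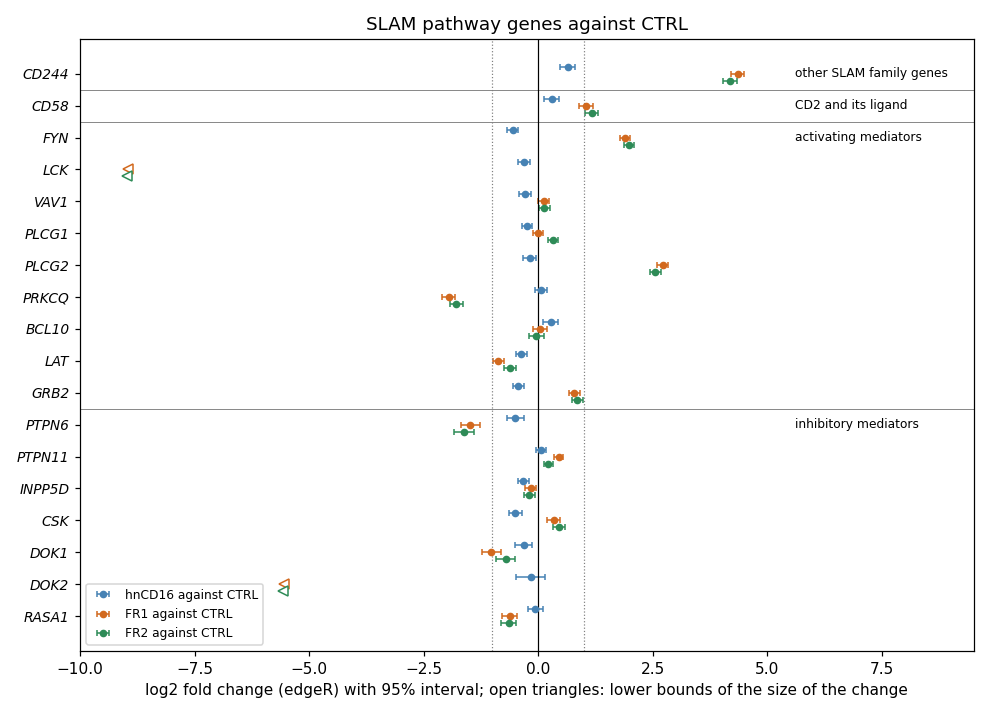
Log2 fold changes (edgeR, x axis) of 18 partner genes (y axis, grouped by list) in hnCD16, FR1 and FR2 against CTRL, with 95% intervals as horizontal lines. Open triangles stand for the floor of 3 counts and mark the smallest change the counts of LCK and DOK2 allow. CD244, FYN and PLCG2 lie right of the dotted fold threshold and LCK, PRKCQ, PTPN6 and DOK2 left of it in both FR1 and FR2.

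The T cell and NK cell marker sums given above differed between the same sets of libraries as these partner genes. The part that cell type had in the differences of the SLAM genes and their partners was not tested.

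The SLAM cluster was also compared with its neighbours on chromosome 1. The 47 tested genes outside the list were 10 before SLAMF6, 27 between the members and 10 after SH2D1B. Of the 27, 26 lay between CD244 and SH2D1B. Of the 47, 19 (40.4%) were DEGs between FR1 and CTRL, beside 38.0% of all tested genes. For FR2 against CTRL 21 (44.7%) were, beside 38.2% of all. Both counts include CD244, itself a SLAM family gene, and FCGR3A and FCGR3B, which differ from CTRL through the transduced receptors. Against hnCD16, 18 (38.3%) were DEGs in FR1, beside 38.3% of all, and 25 (53.2%) in FR2, beside 39.5% of all. CD244 is in both counts against hnCD16, and FCGR3A and FCGR3B only in that of FR2. Along the cluster, in the order given above, SLAMF6 and CD84 at one end were lower in FR1 and FR2, SLAMF1 was not detected, and CD48, SLAMF7 and CD244 were higher, while LY9, between SLAMF7 and CD244, was called in FR2 but not in FR1. F11R, a junction protein gene and the first tested gene after CD244, fell by 3.70 on the log2 scale in FR2 against CTRL. Between hnCD16 and CTRL 2 of the 47 (4.26%) were called, beside 0.527% of all tested genes. They were FCGR3A and its near-identical copy FCGR3B, on which the transduced receptors are counted.

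For each gene with a mean of at least 1 TPM in any group, the 3 genes with the nearest levels over the 12 libraries were sought among 12193 genes, by the root-mean-square difference of log2(TPM + 1). CD48 was nearest to TEX19, with a difference of 0.42, followed by PIM2 (0.57) and F2R (0.58). TEX19, for instance, averaged 2.34 TPM for CTRL, 2.07 for hnCD16, 134 for FR1 and 165 for FR2. SLAMF6 was nearest to ZNF550 (0.16), SYNJ2BP (0.17) and ZNF175 (0.18), and CD84 to ENPEP (0.11), ZNF570 (0.13) and CDH23 (0.14). SLAMF7 was nearest to DGKB (0.20), PHLDA1 (0.20) and USP2 (0.22), LY9 to SNTN (0.21), ZC3H6 (0.21) and TLR10 (0.22), and SH2D1A to PEBP1 (0.25), MRPL3 (0.28) and SEM1 (0.29). With a pseudocount of 0.1 in place of 1, ZNF550, ZNF175, PIM2, CDH23, ZC3H6 and TLR10 were no longer among the nearest 3, so these lists, above all those of SLAMF6 and LY9, depend on the pseudocount. The 8 genes were left out of the candidates, and SLAMF8 and SLAMF9 were under 1 TPM in every group. Of the SLAM family only CD244 could have been listed, and it was not. The lists therefore do not show whether the SLAM genes resemble each other. The measure takes the level into account as well as the pattern.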

How the data were processed

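RNA-seq of 12 YT libraries, 3 for each of CTRL, hnCD16, FR1 and FR2, was analysed from the deposited tables. Per the methods of the study, the authors cleaned reads by SOAPnuke, aligned them by HISAT2 (2.1.0) to GRCh38.p13 and quantified genes and transcripts by RSEM (1.3.1); the submitters' processing notes also list Bowtie2 (2.3.4.3) and DESeq2 (1.4.5). The labels name both ribosomal RNA depletion and oligo(dT) beads, and strand use is not given in the sources used here. The deposited expected counts are RSEM estimates per gene and per transcript, not normalized; RSEM can divide reads between similar genes. The deposited TPM values were made by the authors from the same reads.

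Expected counts were rounded and tested with edgeR 4.0.16 in R 4.3.3 (TMM, filterByExpr, quasi-likelihood test, 1 fit of the 4 groups without covariates, Benjamini-Hochberg over 13657 genes within each of 6 comparisons). SE and 95% intervals are Wald values of that fit. The same fit was also run on simulated counts in which a small set of genes was changed in FR1 only. In these data 38.0% of the tested genes were called for FR1 against CTRL, so that run does not test such wide differences. Libraries held 17714566 to 18729019 counts. Pairs of replicates differed by more than sampling noise, with a chi-square per gene of 2.11 to 13.0. Alternatives were DESeq2 1.42.0, RLE, total counts, limma 3.58.1 after adding 1 or 0.1 to TPM on the log2 scale, other filters, only the 2 groups compared, a replicate block, no fold threshold and leaving out each library.

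The 8 genes, the partner lists and the marker lists were chosen with earlier results of these data known. Named are the 8 genes, the 21 partner genes and, for each of the 8 with a mean of at least 1 TPM in a group, the 3 nearest genes; other genes are named as markers or chromosomal neighbours, and F11R and the example TEX19 were picked after their values were seen. MS4A1 of the B cell list was not analysed here. Promoter windows are RefSeq's (GRCh38.p14) without the bases after the start, and gene positions are from GENCODE v44. Transcript shares are given where a gene had at least 100 counts in each library of a group.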

Additional observations from a re-analysis of the deposited data

How the results depend on the processing

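The values below are limits of the processing, and the cause of a change was not tested unless its construction shows it. The number of SLAM genes called between hnCD16 and CTRL went from 1 to 0 with limma on log2(TPM + 1), which moved CD48 to 0.80, and to 2 without the fold threshold. A filter of at least 10 counts in every library left 3 of the SLAM genes to test, and all 3 were called in each of the 4 comparisons between a fusion receptor group and CTRL or hnCD16. Without the fold threshold the number of partner genes called was 14 for hnCD16 against CTRL (43.0% of all tested genes). Between FR1 and FR2 it was 6 (36.2% of all), with 3 SLAM genes. It was 15 for FR1 against CTRL, 17 for FR2 against CTRL, 18 for FR1 against hnCD16 and 17 for FR2 against hnCD16. The share of all tested genes is not given for these 4 comparisons, so their counts are not a result about the partners. Of all tested genes, 64.4% had no overlap in CPM between the FR1 and FR2 libraries and the others. SLAMF6 between hnCD16 and CTRL turned from 0.03 to -0.080 with total counts only, to -0.10 and -0.11 with limma on log2(TPM + 1) and log2(TPM + 0.1), and to between -0.024 and 0.089 with 1 library left out. LY9 in the same comparison was -0.31 without hnCD16 replicate 2 and at most 0.61 with another library left out. For LY9, FR2 against CTRL was 0.59 with limma on log2(TPM + 1), and FR2 against hnCD16 was 0.47 and 0.93 with the 2 pseudocounts. Scaling by total counts moved the median of all genes to -0.22 in FR1 and -0.17 in FR2 against CTRL, and to -0.12 in hnCD16. CD58 in FR1 against CTRL fell to between 0.85 and 1.06, DOK1 in FR1 against CTRL was -0.98 at its smallest, LAT in FR1 against CTRL reached -1.09, and PTPN6 in FR1 against hnCD16 reached -1.08, so that these 4 genes sit at the fold threshold. CD58 lost its call without CTRL replicate 1 and DOK1 without CTRL replicate 2 or FR1 replicate 2, while PTPN6 gained one without FR1 replicate 1. By counts, the CD48 transcript share in FR1 was 90.1% and the leading CD84 transcript in hnCD16 had 23.6%. With 1 library left out, the leading share of SLAMF6 in hnCD16 ranged from 41.4% to 60.1%, that of SLAMF7 from 18.3% to 39.0% in FR1, that of CD84 from 23.2% to 33.9% in CTRL and from 18.9% to 26.3% in hnCD16. That alternative for transcripts was added after seeing the data. Of 521 fold changes of the 6 SLAM genes under alternatives, 509 stayed on their side of the threshold with their sign. Of 1606 for the 18 partner genes, 38 changed sign, all in differences that were not called, and 13 changed their call. Between libraries of the same replicate number, the correlations of deviations were 0.159, 0.0623 and 0.171 for hnCD16 and CTRL. The lowest over the 6 comparisons was -0.0719. Libraries of different replicate numbers were not correlated for reference, so whether the numbers pair the libraries was not tested. With a replicate block in the fit, the counts of SLAM genes called stayed at 1, 5, 6, 5, 6 and 0 and those of partner genes at 0, 9, 8, 7, 8 and 0. Low counts limit SLAMF1, SH2D1B and LY9.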
